A study of Mus musculus with 8 samples.

Results

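The genes described here are *Atf4* and 9 genes that belong to its response to amino acid and endoplasmic reticulum (ER) stress: *Ddit3*, *Trib3*, *Asns*, *Chac1*, *Atf5*, *Psat1*, *Phgdh*, *Ddit4* and *Slc7a11*. They were chosen by name for their place in this pathway, with earlier results of these data known, and are 10 of the 55401 genes counted. Of these, 9 passed a filter on low counts that kept 17532 genes, and *Slc7a11* did not. Total RNA had been sequenced from mouse embryonic stem cells (ESCs) after depletion of ZZZ3 or YEATS2, both part of the ATAC histone acetyltransferase complex, a coactivator of transcription. In the depleted cells either protein carried the AID tag, an auxin-responsive degron by which added auxin sends the tagged protein to the proteasome. The libraries were 2 labelled Control, 3 labelled Zzz3 auxin (here ZZZ3 depletion) and 3 labelled Yeats2 auxin (here YEATS2 depletion), with auxin at 500 µM for 24 h in the depletions. The labels give neither the line nor the treatment of the Control samples. The study's supplement describes its rate estimates as contrasts of DMSO with auxin within either AID line, and its methods call the reference wild type. A single Control group serves both depletions, so each comparison with it can contain auxin exposure and a difference of line besides the depletion. The study's methods describe ESC culture in serum with leukemia inhibitory factor, both inhibitors of the 2i medium, non-essential amino acids and β-mercaptoethanol. They name G418 to select for the Tir1 auxin receptor, and do not tie medium or selection to single libraries. The labels do not say whether the libraries of a group came from separate cultures or clones. The methods name independent cultures for the nascent RNA protocol and refer the RNA-seq of these depletions to the conditions of earlier nascent RNA data, without tying them to these libraries. P values therefore measure only the spread between these samples, which may be technical.

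ATF4 is a basic leucine zipper (bZIP) transcription factor whose synthesis is controlled mainly at translation. The kinases GCN2, PERK, PKR and HRI phosphorylate the initiation factor eIF2, for example when amino acids run short, and this lowers protein synthesis in general while it favors translation of the *Atf4* mRNA. ATF4 then binds CCAAT/enhancer binding protein (C/EBP)–ATF response elements (CAREs) and raises genes of amino acid synthesis and import, redox balance and growth control. The RNA values below report the mRNA of *Atf4* and of its targets, and not the ATF4 protein. They are averages over all cells of a culture, in which fewer cells with a transcript and less of it per cell cannot be told apart.

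Promoter sequence was examined first because CAREs are the sites through which these genes are linked to ATF4. RefSeq windows of GRCm38.p6, from 250 bases before to 50 bases after each transcription start, were found for 10 of 10 members (12 windows, since *Atf5* and *Psat1* have a pair of starts each). The CARE core TGATGNAA, read on both strands, occurred in windows of 4 members, *Asns*, *Chac1*, *Slc7a11* and *Trib3*, and in 3.97% of all 32851 windows. TGATGCAA, the form of this core that also fits composite sites of C/EBP and ATF factors, was in *Chac1* and *Slc7a11* and in 0.895% of all windows. The cyclic AMP response element TGACGTCA was in 0 members against 1.79% of all windows, and the ER stress element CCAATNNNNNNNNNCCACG in 0 members against 0.119%. These are exact matches of letters and not measured binding. Sites farther from the start or with other letters were not looked for, so members without a match may still have CAREs.

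The 3 upstream sequences that hold a CARE core are shown because these genes span the whole range of expression among the 10 members. Each holds the 250 bases before the start, counted back from -1, 5′ to 3′ on the strand of the gene, and capitals mark the core in either orientation. *Asns* lies at chr6:7693210-7693459 on the minus strand, *Chac1* at chr2:119350992-119351241 on the plus strand and *Slc7a11* at chr3:50443614-50443863 on the minus strand.
Asns: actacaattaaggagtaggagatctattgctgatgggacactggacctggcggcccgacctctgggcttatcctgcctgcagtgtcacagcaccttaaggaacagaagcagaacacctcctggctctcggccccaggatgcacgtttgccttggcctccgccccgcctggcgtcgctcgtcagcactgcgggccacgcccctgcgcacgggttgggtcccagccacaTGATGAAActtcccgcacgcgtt
Chac1: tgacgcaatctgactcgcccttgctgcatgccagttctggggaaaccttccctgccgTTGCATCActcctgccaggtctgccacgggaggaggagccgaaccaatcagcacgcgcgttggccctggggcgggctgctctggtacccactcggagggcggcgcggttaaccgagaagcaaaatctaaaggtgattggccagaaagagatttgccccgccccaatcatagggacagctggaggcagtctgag
Slc7a11: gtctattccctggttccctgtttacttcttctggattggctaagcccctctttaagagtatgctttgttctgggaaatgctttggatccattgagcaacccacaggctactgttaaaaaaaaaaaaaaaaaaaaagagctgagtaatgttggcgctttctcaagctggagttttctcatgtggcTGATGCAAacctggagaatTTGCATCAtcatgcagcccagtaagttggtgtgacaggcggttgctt
In *Asns* the core TGATGAAA covered bases -23 to -16, close to the start and in the direction of transcription. *Chac1* held its core on the opposite strand, at -193 to -186. *Slc7a11* had a pair of cores facing each other, at -66 to -59 and at -47 to -40. In *Trib3* a core TGATGTAA lay after the start, at bases 15 to 22, on the opposite strand.

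The identity of the cultures and the quality of the libraries were checked next. The degron acts on the protein, so its mRNA need not fall. Levels are given as CPM, the reads of a gene per 1e6 reads of its library after scaling by the trimmed mean of M values. *Zzz3* mRNA was 182 to 186 CPM in the Control libraries, 77.5 to 112 CPM after ZZZ3 depletion (log2 fold change, FC, of -0.95, SE 0.14, edgeR adjusted P 0.0187) and 183 to 191 CPM after YEATS2 depletion. *Yeats2* mRNA was 90.9 to 95.8 CPM in Control and 43.7 to 103 CPM after YEATS2 depletion (log2 FC -0.32, SE 0.26, edgeR adjusted P 0.605), so that this mRNA did not check the labels of the YEATS2-depleted libraries. Reads assigned to genes numbered 14315120, in ZZZ3-depleted replicate 3, to 27884704, so that counting error was small for all but the weakest members. The defining ESC markers were high in every library, with *Pou5f1* at 275 to 592 and *Nanog* at 561 to 772 CPM. The summed level of 8 ESC markers was 4690 to 4880 CPM in Control, 4310 to 4740 after ZZZ3 depletion and 4180 to 4920 after YEATS2 depletion. Of 6 fibroblast markers, *Col3a1* was at 0 in 5 libraries and *Postn* in 4, and their sum was 4.14 to 8.56 CPM. Markers of the primed state summed to 135 to 157 CPM in Control, 154 to 179 after ZZZ3 depletion and 199 to 212 after YEATS2 depletion. The last of these sums did not overlap with Control. *Dnmt3b* (127 to 207 CPM over all libraries) made up most of the sum. After YEATS2 depletion its log2 FC was 0.55, whereas *Otx2* and *Pou3f1* were at -0.64 and -0.63, and 0 of them were called by edgeR. *Fgf5* was at 0 in 4 libraries and was not tested. Markers of neuroectoderm summed to 68.8 to 85.3 CPM in Control, 92.5 to 118 after ZZZ3 depletion, again without overlap with Control, and 84.1 to 103 after YEATS2 depletion. Markers of mesendoderm summed to 15.8 to 17.9 CPM in Control, 14.5 to 22.8 after ZZZ3 depletion and 12.2 to 15.0 after YEATS2 depletion, the last below Control. Those of endoderm summed to 0.806 to 1.54 CPM over all libraries. The part of these differences in the results below was not tested. Some libraries stood apart by GC content. Each gene was taken as its log2 deviation from its own mean over the 8 libraries. The median for genes above 53.9% GC minus that for genes below 44.3% was -0.59 in Control replicate 1. This difference was 0.43 for ZZZ3-depleted replicate 3 and -0.08 to 0.15 elsewhere. Of the 10 members, 6 were above the upper of these limits (*Atf4*, *Atf5*, *Trib3*, *Ddit4*, *Chac1* and *Phgdh*, with 55.5 to 61.7% GC) and *Slc7a11*, at 40.7%, was below the lower. In 4 members, *Ddit3*, *Trib3*, *Chac1* and *Phgdh*, Control replicate 1 was the lowest library, and in 4, *Atf4*, *Ddit3*, *Chac1* and *Phgdh*, ZZZ3-depleted replicate 3 was the highest.

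By level per length, 3 of the 10 members stood far above the rest. Given as CPM per kb of exon, averaged over the 8 libraries, *Asns* had 428, *Atf4* 97.4 and *Psat1* 64.9. Only 37 of 17510 tested genes with an annotated length (0.211%) were above *Asns*, which encodes asparagine synthetase, the enzyme that makes asparagine from aspartate and glutamine. *Atf4* itself was exceeded by 2.3% of genes and *Psat1*, the aminotransferase of serine synthesis, by 4.07%. The ranges of these 3 genes over the libraries did not overlap: 395 to 444 for *Asns*, 85.1 to 122 for *Atf4* and 54.7 to 71.9 for *Psat1*. The separation of *Atf4* from *Psat1* depends on the length used. All annotated exons together span 2358 and 4254 bases, but the longest transcripts only 2019 and 2617. In CPM without length *Psat1* was the higher, with a mean of 276 against 230. *Asns* was 4.39 times as high as *Atf4* in the mean, and 3.34 to 4.98 times within single libraries.

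A middle group of 5 genes followed at between 2.05 and 13.8 CPM per kb. *Ddit4* averaged 9.23, *Trib3* 5.72, *Atf5* 5.46, *Phgdh* 3.76 and *Ddit3* 3.48, and each overlapped its neighbor in this order. The ratio of *Atf4* to *Atf5*, the related bZIP factor that is likewise regulated in translation, was 17.8, and that of *Atf4* to *Ddit3*, which encodes the bZIP factor CHOP, was 28.0. *Psat1* and *Phgdh*, which act in consecutive steps of serine synthesis, differed 17.3-fold in the mean and 9.62- to 30.3-fold within libraries. *Chac1* was low at 0.921 and *Slc7a11* lay near the floor at 0.0158. Of the 4 members with a CARE core, *Asns* was highest, *Trib3* lay in the middle group, and *Chac1* and *Slc7a11* were lowest.

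**Figure D1:**
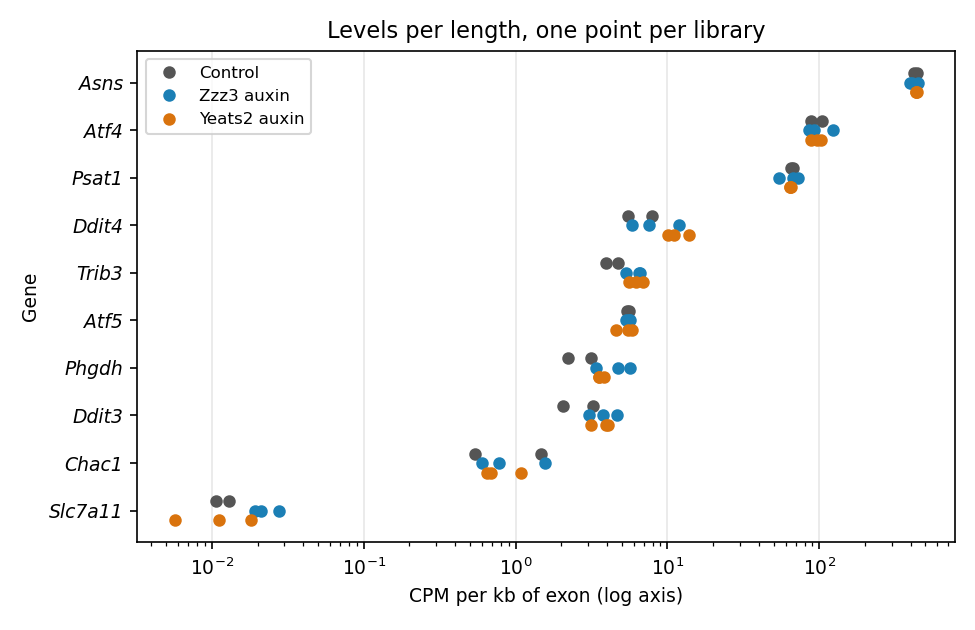
Level of each of the 10 genes in CPM per kb of exon on a log axis, with one point per library, for 2 Control, 3 ZZZ3-depleted and 3 YEATS2-depleted libraries. *Asns*, *Atf4* and *Psat1* sit at 54.7 or above in every library, 5 genes lie between 2.05 and 13.8, and *Chac1* and *Slc7a11* are below.

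The level of *Phgdh* is uncertain. It had 19 annotated copies elsewhere in the genome with at least 90% identity over at least 200 bases, and 37.3% of the 100-base windows of its longest transcript occurred unchanged in transcripts of other genes. The authors counted only uniquely aligned reads, so read pairs without a unique part could be left out, and how many were was not tested. The 19 copies together received 359 reads over the 8 libraries. The same check found no shared window in *Atf4*, *Trib3*, *Asns*, *Chac1*, *Atf5*, *Psat1* or *Ddit4*, 0.69% in *Ddit3* and 0.384% in *Slc7a11*. By the limits of identity and length above, *Psat1* had 1 copy with 13 reads. *Slc7a11* had 15 matches, at 91.6 to 94.5% identity, with 39157 reads in all. They covered only 372 to 585 bases of its longest transcript of 9223 bases, and so are not copies of the whole gene. Among them were the tubulin genes *Tuba1a*, *Tuba1b* and *Tuba1c*, with 8581, 11180 and 18500 of these reads. The part of these matches in the 2 to 10 reads of *Slc7a11* per library was not tested. Exons of *Ddit3* share 105 bases with another annotated entry of the same name on the same strand, where reads could be left out as ambiguous. They also share 68 bases with *Mars* and 13 with *Gm4189* on the opposite strand. Exons of *Atf5* share 82 with *Nup62* and with *Il4i1*, also on the opposite strand. The strand setting of the counting is not stated.

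Whether depletion of either ATAC subunit engaged this pathway was asked by comparing each depletion with Control and both with each other. No member passed the test in any comparison. By edgeR's quasi-likelihood test with Benjamini-Hochberg adjustment over all tested genes, 0 of 9 members were called after ZZZ3 depletion (adjusted P 0.109 to 0.986), where 0.753% of all genes were called. After YEATS2 depletion 0 of 9 were called (adjusted P 0.228 to 0.978), against 0.445% of all genes. Between the depletions 0 of 9 were called (adjusted P 0.779 to 0.995), and 0.0% of all genes. At an unadjusted P under 0.05 there were 2 members after ZZZ3 depletion, *Trib3* and *Phgdh*, and 2 after YEATS2 depletion, *Trib3* and *Ddit4*, and 0 between the depletions, beside 21.7%, 14.6% and 6.25% of all genes. DESeq2 called 1 member after ZZZ3 depletion, *Phgdh*, beside 8.17% of all genes to which it gave an adjusted P. It called 0 after YEATS2 depletion and between the depletions, beside 3.15% and 0.00909% of all genes. Limma-voom called 0 members in each comparison, beside 0.468%, 2.14% and 0.0057% of all genes. The median log2 FC of the 9 members was 0.05 after ZZZ3 depletion, 0.01 after YEATS2 depletion and -0.04 between them, and that of all genes 0.01, -0.01 and -0.01. Without Control replicate 1 the median of the members was -0.015 after ZZZ3 depletion and -0.0087 after YEATS2 depletion, and without Control replicate 2 it was 0.18 and 0.56.

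*Atf4*, a gene with a single exon block on chromosome 15 (ENSMUSG00000042406, 80255184 to 80257541, plus strand, GRCm38), had 208 and 246 CPM in Control replicates 1 and 2. It had 201, 217 and 289 CPM in ZZZ3-depleted replicates 1 to 3, and 228, 241 and 207 after YEATS2 depletion. All 3 groups overlapped, with means of 227 ± 27.1 (SD, n = 2), 236 ± 46.8 (n = 3) and 225 ± 17.0 (n = 3). The log2 FC was 0.05 after ZZZ3 depletion (SE 0.16, adjusted P 0.886) and -0.01 after YEATS2 depletion (SE 0.16, adjusted P 0.978). The 95% intervals ran from 0.815- to 1.32-fold and from 0.779- to 1.26-fold. The direction of these differences changed with the setting.

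*Atf5* encodes a bZIP factor linked to the mitochondrial stress response. It had 10.9 and 11.2 CPM in Control, 11.2, 11.4 and 10.6 after ZZZ3 depletion, and 10.9, 11.7 and 9.18 after YEATS2 depletion. It was the member of the middle group that varied least, with a coefficient of variation of 6.99% over the 8 libraries. Its log2 FC was 0.01 (95% interval -0.36 to 0.37) after ZZZ3 depletion and -0.05 (-0.41 to 0.31) after YEATS2 depletion. With a correction of each library for GC content and length these were -0.42 and -0.33, and *Atf5* had the highest GC content of the members, 61.7%.

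Among the targets that restrain growth or feed back on the pathway, *Ddit3*, *Trib3* and *Ddit4* had higher means in both depletions than in Control. *Ddit3* (CHOP) is linked to cell death under lasting ER stress. It had 3.50 and 5.58 CPM in Control, 5.22, 6.41 and 7.96 after ZZZ3 depletion, and 5.34, 6.91 and 6.73 after YEATS2 depletion. Control replicate 2 lay above 1 library of each depletion, so the groups overlapped. The log2 FCs were 0.51 (SE 0.26, adjusted P 0.280) and 0.47 (SE 0.26, adjusted P 0.416). Without Control replicate 1 they were 0.21 and 0.18, and without Control replicate 2 they were 0.89 and 0.86.

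*Trib3* encodes a pseudokinase induced by ATF4 and CHOP that in turn represses them. It had 8.39 and 10.1 CPM in Control, 11.3, 13.9 and 13.9 after ZZZ3 depletion, and 13.1, 14.7 and 11.8 after YEATS2 depletion. Every library of both depletions was above both Control libraries. That order was seen for 16.8% of all tested genes after ZZZ3 depletion and 19.3% after YEATS2 depletion, and among the 9 members for 2 (*Trib3* and *Phgdh*) and 3 (*Trib3*, *Phgdh* and *Ddit4*). No member had all its depleted libraries below the Control libraries. The share of all tested genes with that opposite order is not given here, so this count has no baseline. The log2 FC of *Trib3* was 0.49 after ZZZ3 depletion (SE 0.18, P 0.0192, adjusted P 0.154) and 0.52 after YEATS2 depletion (SE 0.18, P 0.0151, adjusted P 0.228). These differences amount to 1.41- and 1.43-fold, with 95% intervals of 1.07 to 1.86 and 1.09 to 1.88 before adjustment. Corrected for GC content and length they were 0.17 and 0.30, and the part of GC content was not tested further.

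*Ddit4*, also called REDD1, encodes an inhibitor of the growth kinase mTORC1. It had 14.0 and 9.71 CPM in Control, 13.3, 20.9 and 10.3 after ZZZ3 depletion, and 19.5, 24.2 and 17.8 after YEATS2 depletion. The YEATS2-depleted libraries were above all Control libraries, whereas those of ZZZ3 depletion spread over both ranges. The log2 FC was 0.34 after ZZZ3 depletion (SE 0.28, adjusted P 0.513) and 0.79 after YEATS2 depletion (SE 0.28, P 0.0158, adjusted P 0.230), the latter a 1.73-fold difference with a 95% interval of 1.13 to 2.65. Tested directly, YEATS2 depletion exceeded ZZZ3 depletion by 0.46 (SE 0.24, adjusted P 0.779), which did not pass. Without the filter on low counts *Ddit4* was called after YEATS2 depletion, with an adjusted P of 0.00584 and beside 1.68% of all genes, and over all 16 alternatives the adjusted P ran from 0.00584 to 0.650.

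**Figure D2:**
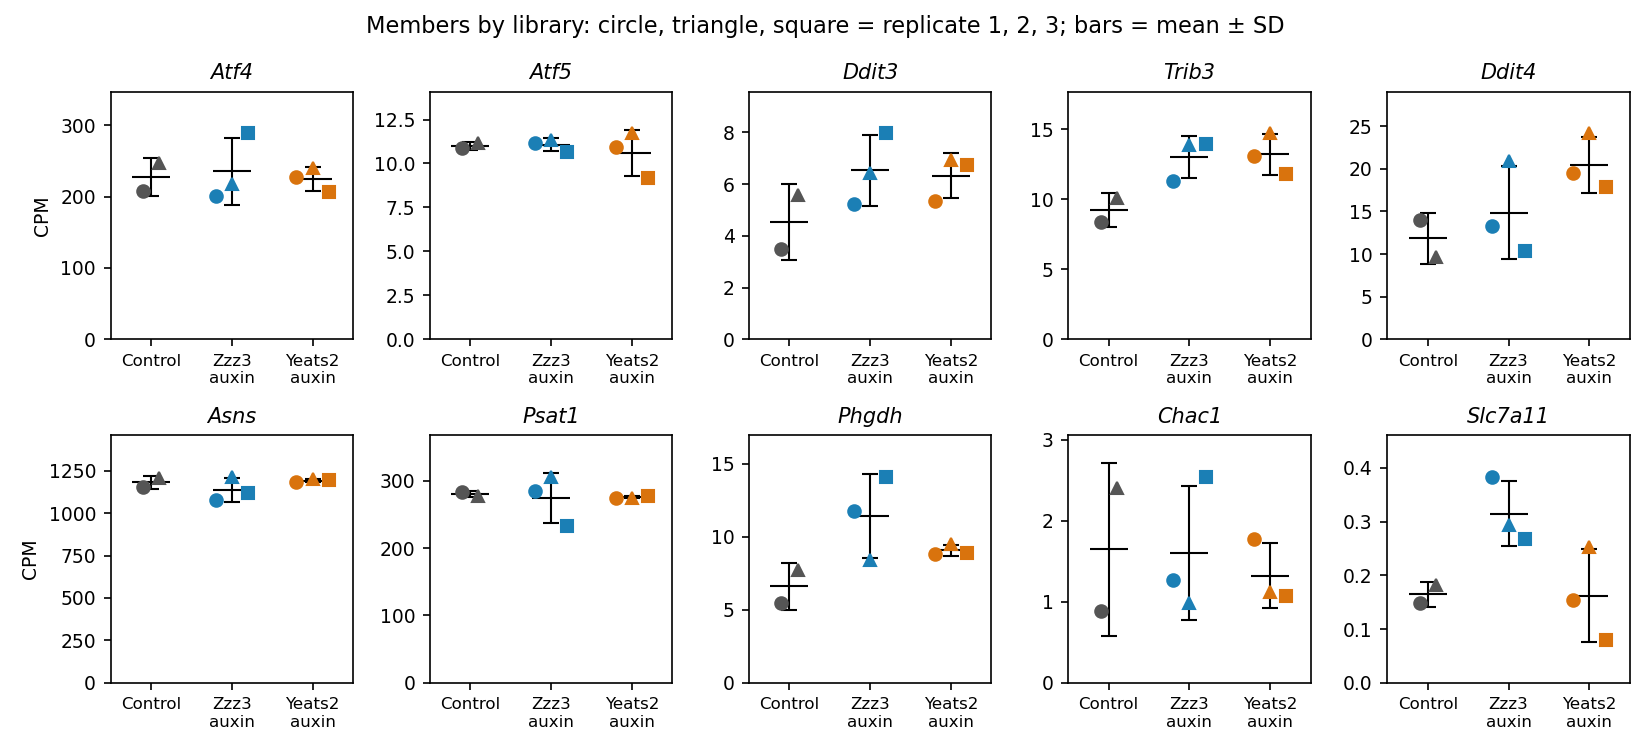
CPM of each of the 10 genes in each library, with circles, triangles and squares for replicates 1, 2 and 3 and bars for the mean ± SD of 2 Control, 3 ZZZ3-depleted and 3 YEATS2-depleted libraries. *Trib3* and *Phgdh* lie above both Control libraries in all 6 depleted libraries, *Ddit4* in the 3 YEATS2-depleted libraries, and the other tested genes overlap.

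Of the enzymes of amino acid synthesis, *Asns* and *Psat1* lay within 0.06 of 0 on the log2 scale in both depletions, and *Phgdh* had higher means than in Control. *Asns* (ENSMUSG00000029752, chromosome 6, 7675169 to 7693254, minus strand, GRCm38) had 1156 and 1208 CPM in Control, 1080, 1215 and 1119 after ZZZ3 depletion, and 1184, 1200 and 1195 after YEATS2 depletion. Its groups overlapped and it varied least of all members, by 4.11% over the libraries. The log2 FC was -0.06 after ZZZ3 depletion (SE 0.11, adjusted P 0.804) and 0.01 after YEATS2 depletion (SE 0.11, adjusted P 0.969), with intervals of 0.818 to 1.13 and 0.858 to 1.19 in fold.

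*Psat1* had 284 and 277 CPM in Control, 285, 306 and 233 after ZZZ3 depletion, and 275, 274 and 277 after YEATS2 depletion. ZZZ3-depleted replicate 3 was the lowest library and replicate 2 of the same group the highest, while the YEATS2-depleted libraries differed by less than those of any other group. The log2 FC was -0.03 in each depletion (SE 0.13, adjusted P 0.919 and 0.943), with intervals of 0.810 to 1.19 and 0.812 to 1.19 in fold.

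*Phgdh* encodes the dehydrogenase that opens serine synthesis. It had 5.48 and 7.76 CPM in Control, 11.7, 8.43 and 14.1 after ZZZ3 depletion, and 8.82, 9.52 and 8.86 after YEATS2 depletion. All 6 depleted libraries were above both Control libraries. The log2 FC of 0.78 after ZZZ3 depletion was the largest of any member there (SE 0.24, P 0.00716, adjusted P 0.109), and that after YEATS2 depletion was 0.45 (SE 0.24, P 0.0812, adjusted P 0.397). YEATS2 depletion differed from ZZZ3 depletion by -0.33 (SE 0.21, adjusted P 0.779). After ZZZ3 depletion *Phgdh* was called by DESeq2 (adjusted P 0.0325), without the filter (0.0193, beside 4.67% of all genes) and without ZZZ3-depleted replicate 2 (0.0393), and its adjusted P over all alternatives ranged from 0.0193 to 0.648. Corrected for GC content and length the log2 FC was 0.48, and without Control replicate 1 it was 0.55. The values rest on 111 to 306 unique reads per library, and the part of the near-identical copies described above was not tested.

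*Chac1* and *Slc7a11*, which act on glutathione and its precursor, had too few reads for a firm statement. CHAC1 degrades glutathione. *Chac1* had 0.888 and 2.40 CPM in Control, 1.27, 0.989 and 2.54 after ZZZ3 depletion, and 1.78, 1.12 and 1.07 after YEATS2 depletion. Both Control libraries spanned nearly the whole range, from 18 to 53 reads. The log2 FC was -0.11 after ZZZ3 depletion (SE 0.48, adjusted P 0.919) and -0.32 after YEATS2 depletion (SE 0.48, adjusted P 0.785), with intervals of 0.447 to 1.91 and 0.388 to 1.64 in fold. Its direction turned with the Control library that was left out: -0.65 and -0.86 without replicate 1, and 0.79 and 0.57 without replicate 2.

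*Slc7a11* encodes the cystine–glutamate exchanger xCT. Its counts were 3 and 4 reads in Control, 10, 8 and 4 after ZZZ3 depletion, and 4, 7 and 2 after YEATS2 depletion. These correspond to 0.148 and 0.181 CPM, to 0.384, 0.293 and 0.268 CPM and to 0.155, 0.253 and 0.0791 CPM, so that the ZZZ3-depleted libraries were above the Control libraries in CPM while the ranges of read counts overlapped. The gene did not enter the edgeR fit used here. Without the filter on low counts its log2 FC was 0.94 after ZZZ3 depletion (SE 0.82, edgeR adjusted P 0.684) and 0.012 after YEATS2 depletion (SE 0.85, adjusted P 1). DESeq2 gave 0.94 (SE 1.00) and -0.0084 (SE 1.03) with no adjusted P. A difference between groups was not detectable at this depth.

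**Figure D3:**
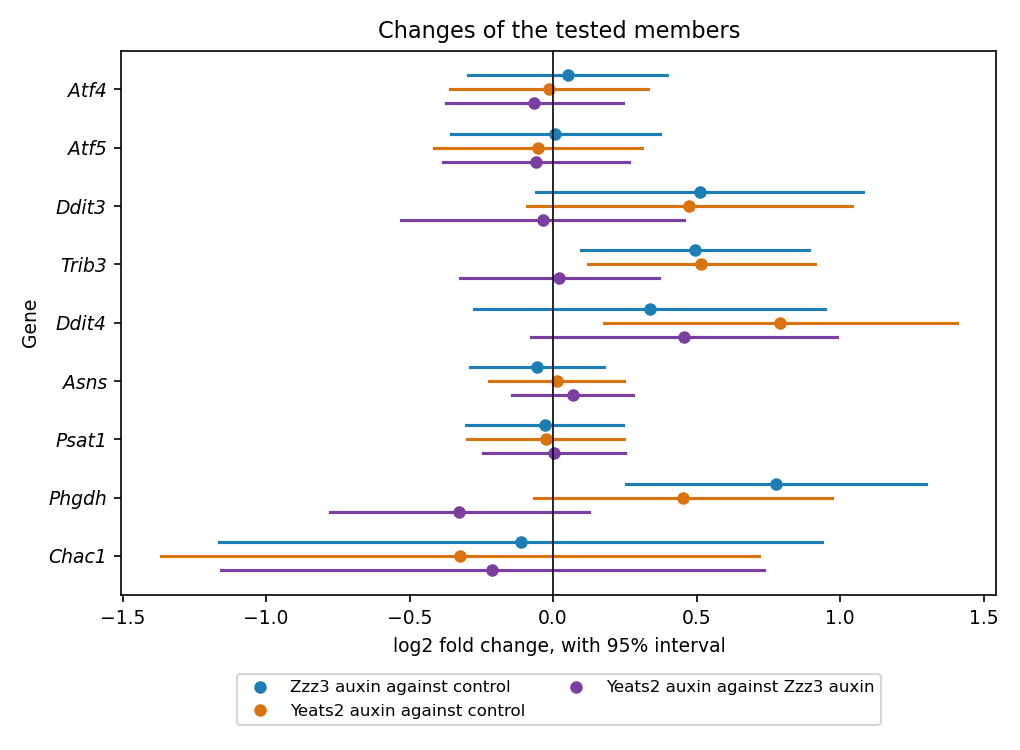
Log2 FC of the 9 tested genes with 95% intervals before adjustment, for each depletion set against Control and for both depletions set against each other, which share libraries. Points of *Atf4*, *Atf5*, *Asns* and *Psat1* lie within 0.07 of 0, those of *Ddit3* and *Trib3* between 0.47 and 0.52 against Control, and the intervals of *Chac1* are the widest.

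Correlations among the members over the libraries differed in sign and size. The median over the 9 members of the log2 ratio to the Control mean was -0.12 and 0.12 in Control, 0.02, 0.13 and 0.35 after ZZZ3 depletion, and 0.26, 0.09 and 0.02 after YEATS2 depletion. Pearson r of log2 CPM over the 8 libraries was 0.84 between *Trib3* and *Ddit3*, and 0.83 without ZZZ3-depleted replicate 3. The r of *Atf4* was highest with *Chac1* (0.78) and *Ddit3* (0.58) and lowest with *Psat1* (-0.81), and these were 0.64, 0.33 and -0.37 without that library. With *Trib3* it was 0.42, and 0.28 without it, and with *Asns* 0.019 and 0.64. *Psat1* and *Phgdh*, of the same route, had an r of -0.59, and -0.06 without it. These 8 points fall into 3 groups and share depth and GC differences, and the values describe these libraries only. The 5 genes most like *Atf4* by the same measure, of 10432 with at least 5 CPM in the mean, were *Hist1h2bj* (0.98), *Ssna1* (0.98), *Rundc3a* (0.97), *Ngrn* (0.97) and *Ndufb6* (0.97). Those most like *Ddit4* were *Heca* (0.98), *Arhgap19* (0.95), *Pdha1* (0.95), *Idh1* (0.95) and *Mettl13* (0.95). No member was among either set of 5.

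The wider pathway was read from 8 lists with 98 genes in all, of which 96 were tested. The highest and lowest genes of a list are given among those with at least 2 CPM in the mean. With edgeR only *Sesn2* was called, after ZZZ3 depletion. It encodes sestrin 2, a leucine-binding inhibitor of mTORC1 signaling that is also a target of p53. *Sesn2* had 71.3 and 94.6 CPM in Control, 153, 148 and 200 after ZZZ3 depletion, and 153, 129 and 155 after YEATS2 depletion. All depleted libraries were above both Control libraries. Its log2 FC was 1.01 after ZZZ3 depletion (SE 0.17, adjusted P 0.0359) and 0.81 after YEATS2 depletion (SE 0.17, adjusted P 0.0728), and both depletions differed from each other by -0.20 (adjusted P 0.796). The call after ZZZ3 depletion held under 8 of 16 alternatives. It was lost with a replicate block (adjusted P 0.0600), with only the groups compared (0.169) and without Control replicate 1 (0.473), Control replicate 2 (0.0781), ZZZ3-depleted replicate 1 (0.0522) or YEATS2-depleted replicates 1 (0.0860), 2 (0.0638) or 3 (0.0808). Its log2 FC stayed between 0.64 and 1.23, the former with the correction for GC content and length.

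In the 12 other targets of ATF4, *Sesn2* among them, 11 genes were tested and 1 was called after ZZZ3 depletion and 0 after YEATS2 depletion. At an unadjusted P under 0.05, 5 were higher and 1 lower after ZZZ3 depletion, and 3 higher and 2 lower after YEATS2 depletion, with medians of 0.42 and 0.07. Counts at this unadjusted threshold, here and in the lists that follow, stand against 21.7% and 14.6% of all tested genes after ZZZ3 and YEATS2 depletion. The largest log2 FC after ZZZ3 depletion was that of *Gdf15*, a secreted stress factor, at 1.04 (SE 0.32, adjusted P 0.110), with 1.59 ± 0.262 CPM in Control (n = 2) and 3.32 ± 1.06 after ZZZ3 depletion (n = 3). The lowest with at least 2 CPM were *Ndrg1* at -0.42 after ZZZ3 depletion (adjusted P 0.182) and *Ero1l*, an ER oxidase, at -0.37 after YEATS2 depletion (adjusted P 0.298). Below that limit, *Vldlr* (0.762 CPM in the mean) was lower still, at -0.91 and -1.44 (edgeR adjusted P 0.267 and 0.192).

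Upstream of ATF4, 16 genes of the list of eIF2 kinases, eIF2 with its exchange factor and its phosphatase, which includes the GCN2 regulators *Gcn1l1* and *Impact* and the mitochondrial stress relay *Oma1* and *Dele1*, were tested and 0 were called in either depletion. At an unadjusted P under 0.05 there were 7 after ZZZ3 depletion, 3 higher and 4 lower, and 3 after YEATS2 depletion, 2 higher and 1 lower, with medians of 0.03 and -0.03. *Eif2ak2*, which encodes the kinase PKR, had the lowest values, with 65.4 ± 6.02 CPM in Control (n = 2), 46.6 ± 4.59 after ZZZ3 depletion and 47.5 ± 0.565 after YEATS2 depletion (n = 3 each). Its log2 FCs were -0.49 (adjusted P 0.0790) and -0.46 (adjusted P 0.142), and it was called lower by DESeq2 after ZZZ3 depletion and by limma-voom after YEATS2 depletion. The highest were *Gcn1l1*, the activator of GCN2, at 0.56 after ZZZ3 depletion (adjusted P 0.137) and *Eif2b2* at 0.52 after YEATS2 depletion (adjusted P 0.248).

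Of 10 genes listed with the bZIP partners of ATF4, which include the chromatin protein *Nupr1*, 9 were tested and 0 were called, with 2 and 1 at an unadjusted P under 0.05 after ZZZ3 and YEATS2 depletion. Among those with at least 2 CPM, *Jdp2* was highest in both depletions (0.41 and 0.36, adjusted P 0.347 and 0.505) and *Cebpg* lowest (-0.41 and -0.30, adjusted P 0.140 and 0.362). Below that limit, *Fos* (1.25 CPM in the mean) had the largest log2 FC of the list, 1.74 and 1.51 (edgeR adjusted P 0.0888 and 0.185). Of 10 amino acid transporters 0 were called and 4 and 1 had an unadjusted P under 0.05, with medians of -0.06 and -0.07. *Slc38a1*, a glutamine transporter, was lowest in both (-0.44 and -0.49, adjusted P 0.106 and 0.142), and the highest were *Slc43a1* after ZZZ3 depletion (0.88, adjusted P 0.203) and *Slc1a4* after YEATS2 depletion (0.26, adjusted P 0.518).

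Of 13 further enzymes of serine, glycine, proline, aspartate and one-carbon metabolism 0 were called and 1 in each depletion had an unadjusted P under 0.05, with medians of 0.10 and 0.07. *Mthfd1* had the highest log2 FC (0.40 and 0.40, adjusted P 0.118 and 0.185) and *Mthfd2*, its mitochondrial relative and an ATF4 target, the lowest (-0.25 and -0.16, adjusted P 0.308 and 0.622). Of 13 genes of the tRNA synthetase list, which includes the tRNA exporter *Xpot*, 0 were called and 3 in each depletion were higher at an unadjusted P under 0.05. A positive log2 FC was found in 10 and 12, with medians of 0.10 and 0.17. *Cars*, the cysteinyl-tRNA synthetase, had 155 ± 14.9 CPM in Control (n = 2), 221 ± 13.4 after ZZZ3 depletion (n = 3) and 225 ± 15.8 after YEATS2 depletion (n = 3), with log2 FCs of 0.51 and 0.54 (adjusted P 0.0697 and 0.0854), and was called higher by DESeq2 in both depletions. The lowest were *Nars* after ZZZ3 depletion (-0.09, adjusted P 0.728) and *Iars* after YEATS2 depletion (-0.09, adjusted P 0.771).

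The other stress responses gave 0 calls with edgeR. Of 16 ER chaperones and genes of the other branches of the unfolded protein response 0 were called and 2 in each depletion had an unadjusted P under 0.05, with medians of -0.04 and -0.08. Their extremes were *Atf6* (0.17, adjusted P 0.442) and *Dnajb9* (-0.64, adjusted P 0.155) after ZZZ3 depletion, and *Pdia6* (0.28, adjusted P 0.321) and *Manf* (-0.41, adjusted P 0.168) after YEATS2 depletion. Of 8 mitochondrial chaperones and proteases 0 were called and 5 and 4 had an unadjusted P under 0.05, with medians of -0.19 and 0.02. The co-chaperonin *Hspe1* was lowest in both (-0.69 and -0.49, adjusted P 0.0655 and 0.191), and the proteases *Clpp* after ZZZ3 depletion (0.49, adjusted P 0.142) and *Lonp1* after YEATS2 depletion (0.59, adjusted P 0.113) were highest. Over all 8 lists 30 of 96 tested genes (31.2%) had an unadjusted P under 0.05 after ZZZ3 depletion, 16 of them higher and 14 lower, and 20 (20.8%) after YEATS2 depletion, 14 higher and 6 lower, against 21.7% and 14.6% of all tested genes. Over the 8 lists DESeq2 called 5 genes after ZZZ3 depletion (*Cars*, *Eif2ak2*, *Eif4ebp1*, *Hspe1* and *Sesn2*) and 3 after YEATS2 depletion (*Cars*, *Lonp1* and *Sesn2*), and limma-voom called 1 (*Sesn2*) and 5 (*Cars*, *Eif2ak2*, *Lonp1*, *Sesn2* and *Vldlr*). Over all genes DESeq2 called 8.17% and 3.15%, and limma-voom 0.468% and 2.14%. *Sesn2* was thus called by both other tools in both depletions. *Eif4ebp1*, *Fos* and *Vldlr* were named after their values were seen. Between the depletions 0 of the 96 genes were called and 5 (5.21%) had an unadjusted P under 0.05, and DESeq2 and limma-voom called 0.

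**Figure D4:**
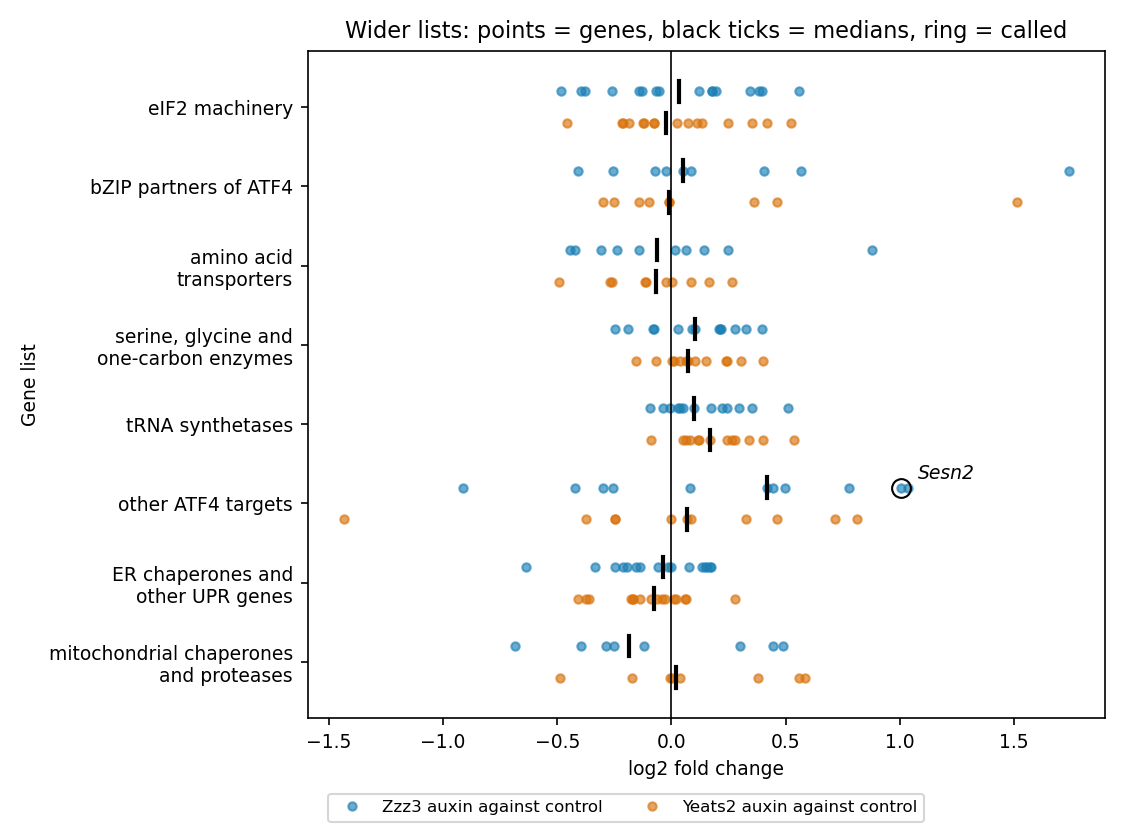
Log2 FC of the 96 tested genes of the 8 wider lists after ZZZ3 and YEATS2 depletion against the same Control libraries, with black ticks for medians and a ring around the called gene. Only *Sesn2* after ZZZ3 depletion, at 1.01, is ringed, and the list medians lie between -0.19 and 0.42.

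How far the differences of *Trib3*, *Phgdh* and *Ddit4* depended on the processing was read from 16 alternatives each, 8 of which leave out a library. All 3 genes kept a positive log2 FC in all alternatives of both comparisons with Control, as did *Ddit3*. Where every depleted library lay above both Control libraries, leaving out a library could hardly turn the sign. This was so for *Trib3* and *Phgdh* in both comparisons and for *Ddit4* after YEATS2 depletion. *Trib3* ranged from 0.17 to 0.64 after ZZZ3 depletion and from 0.30 to 0.66 after YEATS2 depletion, and was called in none (lowest adjusted P 0.105 and 0.106). *Phgdh* ranged from 0.48 to 1.06 after ZZZ3 depletion and from 0.22 to 0.73 after YEATS2 depletion, and *Ddit4* from 0.01 to 0.62 and from 0.54 to 1.08.

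**Figure D5:**
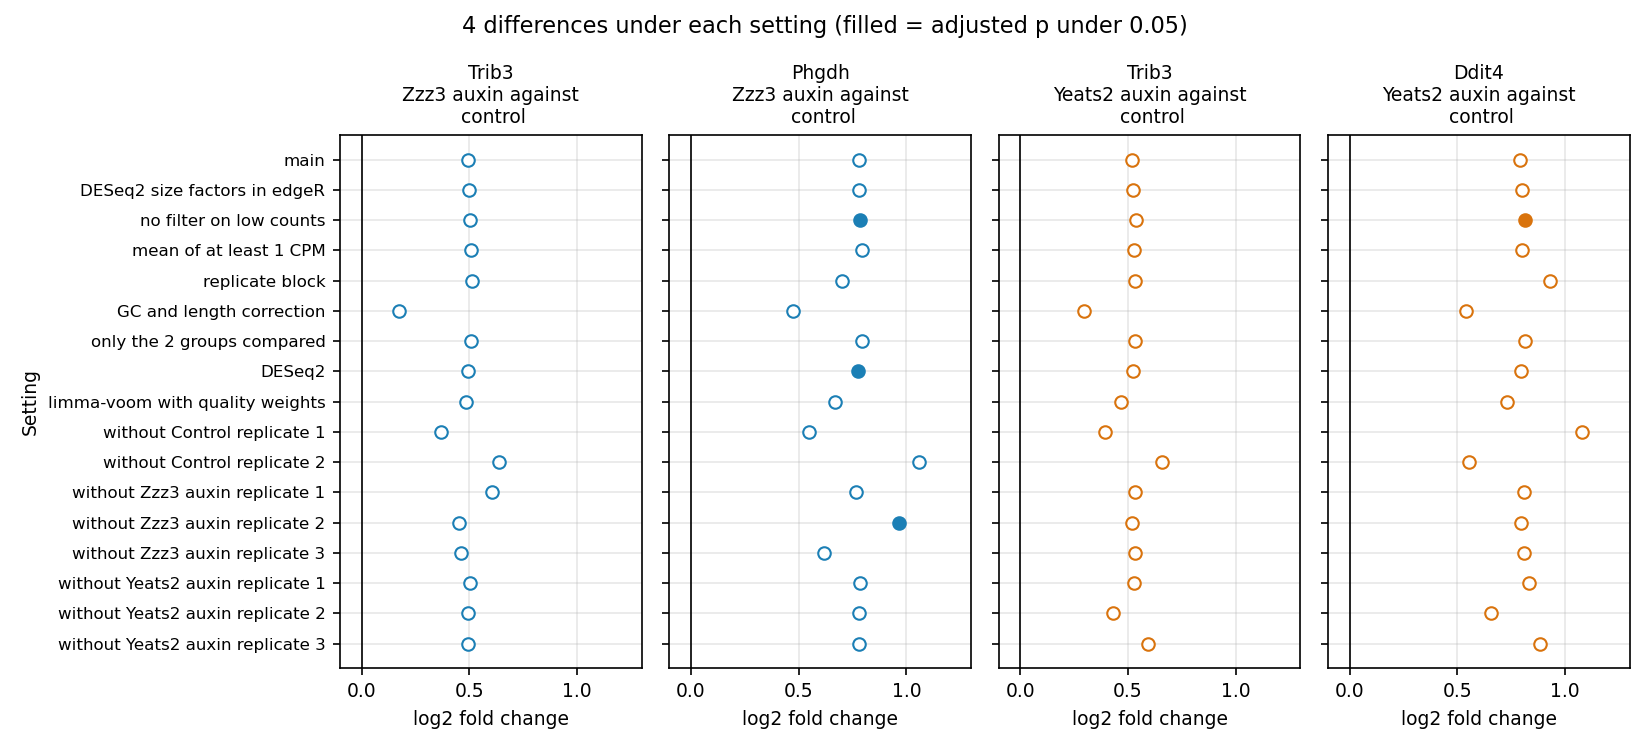
Log2 FC of *Trib3* and *Phgdh* after ZZZ3 depletion and of *Trib3* and *Ddit4* after YEATS2 depletion under the fit used here and 16 alternatives, with filled points where the adjusted P was under 0.05. *Phgdh* is filled under 3 alternatives and *Ddit4* under 1, and all points are above 0.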

How the data were processed

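The deposited values were raw counts of reads per gene in 8 libraries. According to the submitters' processing notes and the study's methods, adapter trimming and removal of ribosomal RNA reads came first, and the authors then aligned to mm10 with STAR 2.5.3a and counted unique, unambiguous reads with HTSeq 0.6.1p1 on Ensembl annotation. The labels name polyA RNA, while the protocol describes ribodepletion of total RNA. The 5 tallies of unassigned reads per file were left out (29.6 to 37.1% of uniquely aligned reads per library matched no counted feature). The methods name counting with introns only for the nascent RNA data, so these reads can include intronic reads of annotated genes. Counts were tested with the robust quasi-likelihood method of edgeR 4.0.16 in R 4.3.3, all 8 libraries in 1 fit, after filterByExpr and TMM scaling, two-sided, and called at an adjusted P under 0.05 over all 17532 genes. Alternatives were DESeq2 1.42.0, its size factors, a minimum mean of 1 CPM, no filter on low counts, only the 2 groups compared, a replicate block, a GC and length correction, limma-voom (limma 3.58.1) and leaving out each library. Code was tested on simulated data. GENCODE (GRCm38, the assembly of mm10) gave symbols and lengths for 55141 genes, and 260 had none. Near-identical copies were found with BLAST 2.17.0. Within groups, no libraries were duplicates (chi-square per gene 3.55 to 47.9). Same-numbered samples of both depletions correlated by -0.07 to 0.05 in their deviations from group means. With 2 Control libraries these deviations mirror each other. Correlations with Control (-0.34 to 0.31 for the same number) therefore cannot decide on pairing. No pairing is stated, and replicate numbers were not taken to pair samples. All members are named, and of each wider list the called genes and, for each depletion, the highest and lowest log2 FC among genes with at least 2 CPM were named. Members and lists were chosen with earlier results of these data known. Proteins and nascent RNA were not analysed here.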

Additional observations from a re-analysis of the deposited data

How the results depend on the processing

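The 9 members gave 144 values under 16 alternatives in each comparison, of which 127 (ZZZ3), 132 (YEATS2) and 129 (between the depletions) kept their direction and side of the threshold. Those that did not are given as log2 FC unless they are counts, and their causes were not tested. In the comparisons with Control, 1 member (*Phgdh*) was called for ZZZ3 with DESeq2, without the filter and without ZZZ3-depleted replicate 2, and 1 (*Ddit4* for YEATS2) without the filter, so that leaving out a library gave 0 to 1 calls for ZZZ3 and 0 otherwise. The replicate block, which called 0 members, turned *Atf4* (-0.0068) and *Psat1* (0.017) for ZZZ3 and *Atf5* (0.0069) and *Psat1* (0.030) for YEATS2. The GC and length correction turned *Atf4* (-0.18) and *Atf5* (-0.42) for ZZZ3, and *Atf4* (0.0028), *Atf5* (0.10) and *Psat1* (-0.0128) between the depletions. With limma-voom *Atf4* (-0.0127) and *Psat1* (0.0067) turned for ZZZ3, and *Trib3* (-0.019), *Chac1* (0.11) and *Psat1* (-0.031) between the depletions. *Atf4* for YEATS2 was 0.0082 without the filter and 0.0021 with only the 2 groups compared. Leaving out 1 library moved the median of the members from -0.015 to 0.18 (the lower without Control replicate 1, the upper without Control replicate 2), *Atf4* from -0.11 to 0.18, *Chac1* from -0.65 to 0.79, *Atf5* from -0.015 to 0.046 and *Psat1* from -0.11 to 0.090 for ZZZ3. For YEATS2 it moved *Atf4* from -0.13 to 0.12, *Asns* from -0.019 to 0.048, *Chac1* from -0.86 to 0.57 and *Atf5* from -0.13 to 0.043, and the median of the members from -0.0087 to 0.56, the lower value without Control replicate 1 and the upper without Control replicate 2. Between the depletions it moved *Atf4* from -0.17 to 0.11, *Ddit3* from -0.18 to 0.12, *Trib3* from -0.072 to 0.10, *Chac1* from -0.49 to 0.23, *Atf5* from -0.14 to 0.035 and *Psat1* from -0.10 to 0.085. Over all genes, against 132 (ZZZ3) and 78 (YEATS2) calls, DESeq2 called 1083 and 418, the fit without the filter 1542 and 553, limma-voom 82 and 375, the replicate block 42 and 32, the GC and length correction 167 and 132, and fits of only the groups compared 0 and 454. Between the depletions these gave 0 calls, except for 3 with DESeq2, 117 without the filter and 1 with limma-voom. Leaving out 1 library gave 0 (without either Control library) to 841 (without ZZZ3-depleted replicate 2) calls for ZZZ3, 0 (without Control replicate 1 or YEATS2-depleted replicate 3) to 217 (without ZZZ3-depleted replicate 3) for YEATS2, and 0 to 1 between the depletions. With 1 Control library left, that library is assumed to vary like the other groups. The 2 Control libraries limit the precision, and counts of 2 to 53 reads per library that of *Chac1* and *Slc7a11*.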
